A study of Homo sapiens with 5 samples.

Results

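The genes described here are 60 genes of mitosis, the spindle and the Aurora kinases, chosen by name with earlier results of these data known. A gene counted as measured when an array feature carried its symbol and no other, and its brightest feature, by the mean over the 5 arrays, gave its value. Of the 60 genes 52 were measured, among 14232 named genes in all. BORA, BUB1B, KIF20A, KIF23, KIF4A, RACGAP1, NCAPG and SMC4 lay only on features annotated with several symbols and have no value here.

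The study lowered the scaffold protein NEDD9 in one lung cancer cell line and raised it in another, and hybridised total RNA of 5 samples to 1 Affymetrix human exon array each. A549, a lung adenocarcinoma line with loss-of-function LKB1 and, per the submitters, raised NEDD9, was profiled with short hairpin shNEDD9 #1 (hairpin 1), with shNEDD9 #2 (hairpin 2) and as a control. CRL-5907, described by the submitters as carrying wild-type LKB1 and little NEDD9, was profiled with NEDD9 overexpression and as a control. The labels do not give vectors, promoters, selection or time in culture, whether the lines derive from single clones, whether the controls carried an empty or non-targeting construct, or whether the arrays came from separate cultures.

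Entry into mitosis is driven by the kinase CDK1 bound to a B-type or A-type cyclin. Aurora A, activated at the centrosome and by TPX2 on the spindle, and Aurora B, which works at the centromere in the chromosomal passenger complex with INCENP, survivin and borealin, then direct spindle assembly and chromosome attachment. Many of these genes are transcribed mainly in G2 and mitosis, under a MYB-MuvB and FOXM1 programme that acts through a promoter element called the cell cycle genes homology region (CHR), often beside CCAAT boxes bound by NF-Y, so their RNA level in a culture follows the share of cells in that phase. NEDD9 is itself known to bind Aurora A and to take part in its activation at the onset of mitosis, besides its place at focal adhesions.

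Promoter windows are shown for CDK1, CCNB2 and HMMR, which were past 1.5-fold above control with each hairpin, and for Aurora B. The printed windows were picked with 1 chromosome left out. None is printed for PBK, the remaining member past that fold. Each runs from 250 bases before to 50 bases after a RefSeq transcription start (300 bases, build GRCh38.p14), 5′ to 3′ on the gene's strand. Capitals mark TTTGAA, the CHR letters, and CCAAT, with their reverse complements TTCAAA and ATTGG. The CDK1 window is chr10:60778228-60778527 on the plus strand, taken from its 2 windows for its TTTGAA matches. CCNB2 (cyclin B2) is shown at chr15:59104896-59105195 on the plus strand and HMMR, a spindle protein that acts with TPX2 and Aurora A, at chr5:163460382-163460681 on the plus strand. The AURKB window is chr17:8210176-8210475 on the minus strand, 1 of its 2 windows.
CDK1: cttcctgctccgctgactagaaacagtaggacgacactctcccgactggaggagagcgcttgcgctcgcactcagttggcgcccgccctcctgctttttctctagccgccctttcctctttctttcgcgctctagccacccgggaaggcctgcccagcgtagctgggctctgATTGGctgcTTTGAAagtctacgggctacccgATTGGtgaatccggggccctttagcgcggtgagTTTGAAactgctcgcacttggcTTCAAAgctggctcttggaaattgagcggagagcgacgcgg
CCNB2: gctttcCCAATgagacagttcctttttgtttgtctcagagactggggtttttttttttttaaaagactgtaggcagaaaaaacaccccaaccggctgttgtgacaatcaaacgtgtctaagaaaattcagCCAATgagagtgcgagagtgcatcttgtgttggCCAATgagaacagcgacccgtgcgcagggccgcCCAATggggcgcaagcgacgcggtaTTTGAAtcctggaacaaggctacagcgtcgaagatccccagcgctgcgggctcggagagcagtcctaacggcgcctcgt
HMMR: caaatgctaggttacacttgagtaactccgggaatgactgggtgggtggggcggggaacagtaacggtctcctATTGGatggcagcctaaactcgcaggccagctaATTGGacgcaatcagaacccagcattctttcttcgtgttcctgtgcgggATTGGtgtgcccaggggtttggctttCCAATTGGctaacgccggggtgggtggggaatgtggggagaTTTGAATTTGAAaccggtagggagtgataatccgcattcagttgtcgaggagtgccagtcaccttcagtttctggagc
AURKB: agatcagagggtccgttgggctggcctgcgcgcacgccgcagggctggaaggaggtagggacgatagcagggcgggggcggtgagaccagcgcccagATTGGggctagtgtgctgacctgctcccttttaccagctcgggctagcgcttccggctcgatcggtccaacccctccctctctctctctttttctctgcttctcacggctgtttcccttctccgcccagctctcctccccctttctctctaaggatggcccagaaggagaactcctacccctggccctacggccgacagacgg
In CDK1 the letters TTTGAA began 69 and 13 bases before the start, and TTCAAA at base 10 after it. In CCNB2 a single TTTGAA began 29 bases before the start, downstream of 4 CCAAT matches. HMMR held 2 adjacent TTTGAA matches, 28 and 22 bases before the start, and 5 CCAAT or ATTGG matches, a pair of which overlap in one palindrome. The AURKB window held 1 ATTGG and no TTTGAA.

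RefSeq windows were matched for 44 of the 52 measured genes, 56 windows in all. TTTGAA, read on both strands, was in 58.9% of these windows against 15.2% of the 35116 windows of all genes. CCAAT was in 71.4% against 34.6%, and both stood in the same window in 48.2% against 5.9%. The E2F letters TTTCCCGC or TTTGGCGC, also read on both strands, were in 5.36% against 2.27%, that is in CENPA, KIF15 and NUSAP1. These are matches of letters and do not show binding.

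NEDD9 followed the labels, with log2 levels of 8.35 and 8.52 with hairpins 1 and 2 against 8.94 on the A549 control, and 9.49 with overexpression against 4.66 on the CRL-5907 control. The lowering was thus partial, by 33.4% with hairpin 1 and 24.8% with hairpin 2. All 6 epithelial markers lay above the array median on every array. Of the markers of other cell types, CD14 lay above it on 4 arrays, COL1A1 on the 2 CRL-5907 arrays, and the other measured leukocyte, fibroblast and endothelial markers on none. CD14 was 6.08 and 5.63 with the hairpins against 6.47 on the A549 control. Its part in the results below was not tested.

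Each value below is a normalised log2 level from 1 array, so the number of arrays and not a read depth limits precision. Levels are compared between arrays and not between genes. Neither control line nor the overexpression line was measured on more than 1 array, and the A549 control array enters the differences of both hairpins. Hairpin 2 minus hairpin 1, the only difference between arrays of one group, had an SD over genes of 0.13 to 0.263 in 20 bins of level, and 1.5-fold is 0.58 on the log2 scale. Of the 52 measured genes 26 lay at or below the median of every array (medians 5.69 to 5.85) and 7 lay above it on all 5. No detection call came with the values, so a level below the array median may lie in the background, and a fold change from it may be understated.

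With NEDD9 knockdown in A549 the mitosis genes were mostly higher than on the control array. The median log2 difference was 0.34 with hairpin 1 and 0.54 with hairpin 2 (1.27-fold and 1.45-fold), while the medians over all named genes were 0.02 and 0.00. By any amount, 48 of the 52 genes were higher with both hairpins, against 39.6% of all named genes, and 2 were lower with both, against 27.7%. CDK1, CCNB2, PBK and HMMR, 4 of 52 genes, exceeded the control by 1.5-fold or more with each hairpin, against 0.794% of all named genes. None was 1.5-fold lower with both, against 0.302%. In bulk RNA, a change in the number of cells in mitosis and a change in RNA per cell cannot be told apart.

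Hairpin 1 alone put the same number past 1.5-fold, 4 genes (2.59% of all named genes), whereas hairpin 2 alone put 22 there (1.57%). No member was 1.5-fold lower with either hairpin, against 1.27% and 0.913% of all named genes. limma, with the spread between the hairpins as its error and 1 residual degree of freedom, called none of the 52 genes and none of the 14232 (0%) at an adjusted p under 0.05, and the lowest adjusted p was 0.276 in both sets. With so few degrees of freedom even large differences need not be called, so these counts of 0 do not show that the genes were unchanged. At an unadjusted p under 0.05 it gave 7 of the 52 genes as higher (9.68% of all named genes) and none as lower (5.92%). Those 7 were CDCA8, UBE2C, NDC80, KIF11, KIF15, PLK4 and ECT2, in which the hairpins lay close to each other or, in UBE2C and NDC80, were equal. The counts and medians here are therefore descriptions of 3 arrays. With only genes above the median mean level kept, 18 members remained and 0 of them passed 1.5-fold with both hairpins (0.436% of the genes kept). The mean levels of CDK1, CCNB2, PBK and HMMR over the 5 arrays lie below that median. That mean includes the CRL-5907 arrays, which play no part in the knockdown. CCNB2 lay above the array median on every A549 array, CDK1 on both hairpin arrays, and PBK and HMMR on no array.

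**Figure D1:**
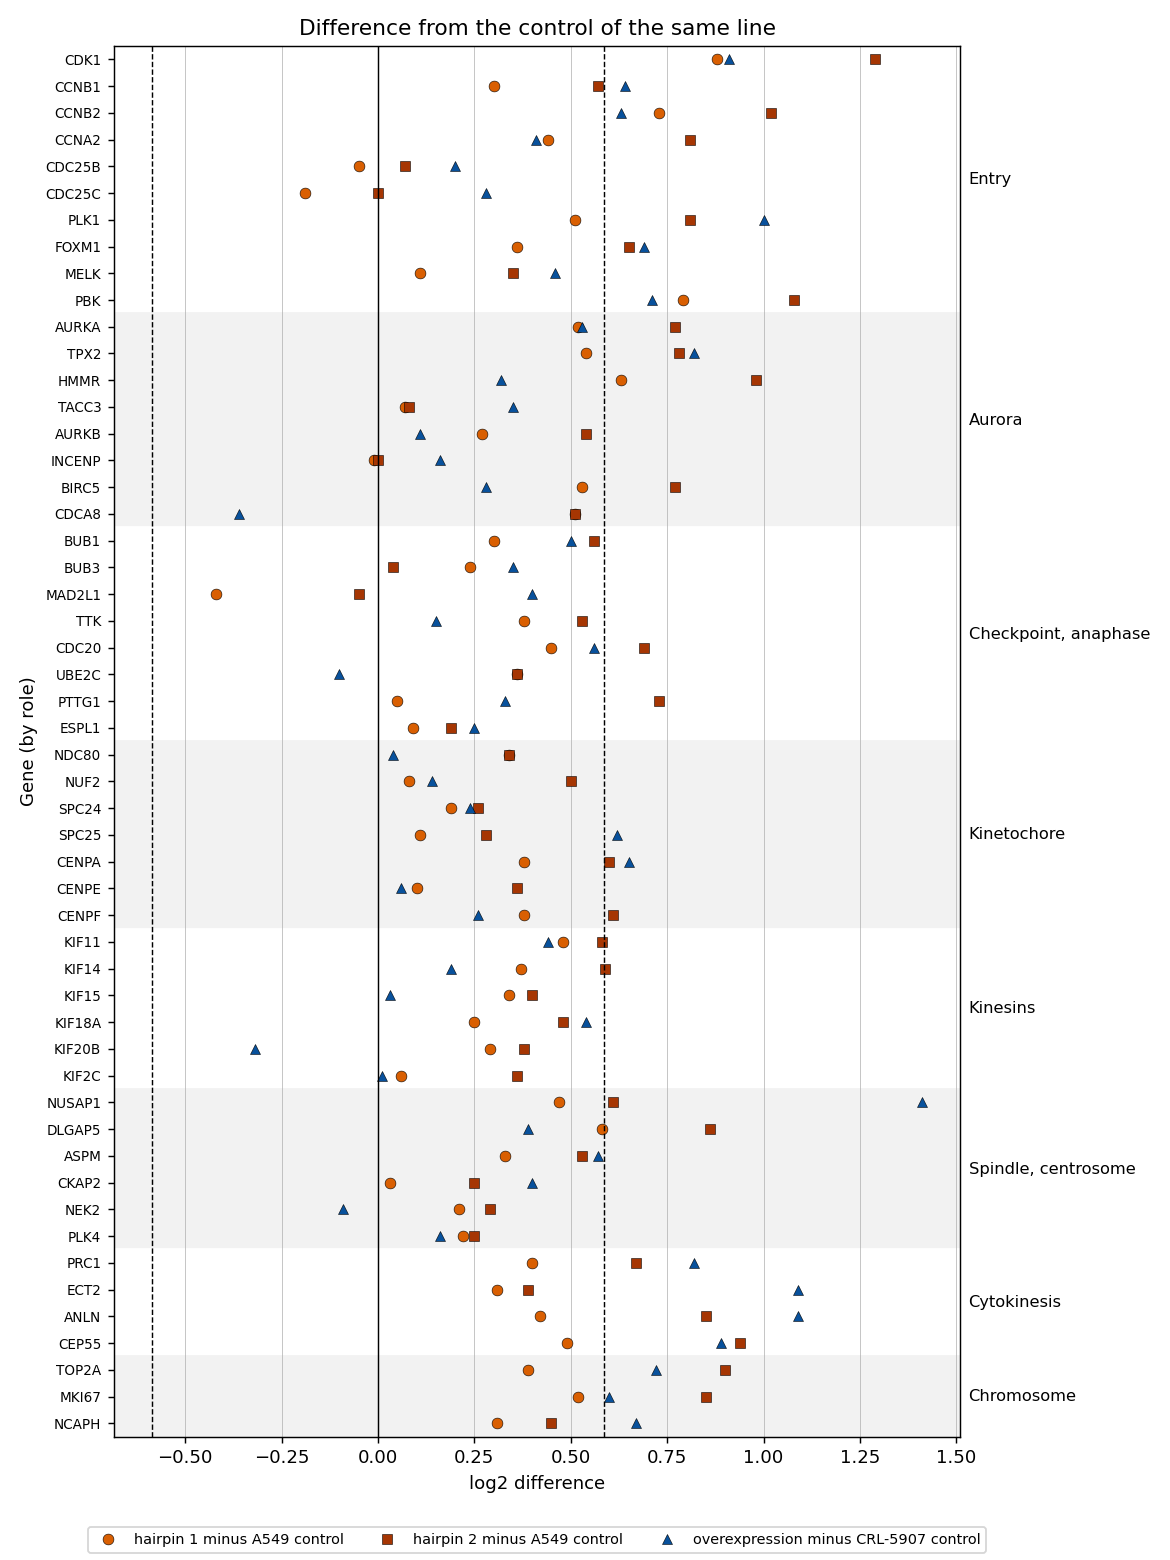
Log2 difference from the control array of the same line (x axis) for each of the 52 measured genes (y axis, grouped by role), with circles for hairpin 1, squares for hairpin 2 and triangles for overexpression. Dashed lines mark 1.5-fold either way. Hairpin 2 passes the right-hand line for 22 genes, overexpression for 17 and hairpin 1 for 4, and no symbol passes the left-hand line.

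Among the 10 genes of mitotic entry, 8 were higher with both hairpins. CDK1 had log2 levels of 6.48 and 6.89 with hairpins 1 and 2, against 5.61 on the A549 control. This was the furthest of all members from control, at 1.83-fold and 2.44-fold (mean log2 difference 1.08 ± 0.29, SD, n = 2 hairpins; adjusted p = 0.379 by limma). CCNB2, a mitotic cyclin partner of CDK1, had 7.08 and 7.37 against 6.34 (0.88 ± 0.20, SD, n = 2 hairpins). PBK, a mitotic MAPKK-like kinase, had 5.37 and 5.66 against 4.58 (0.93 ± 0.21, SD, n = 2 hairpins). For these 3 genes both hairpin arrays stood above the control by more than the gap between the hairpins. The same held for PLK1, CCNA2, FOXM1 and CCNB1 among the entry genes, and not for MELK, CDC25B and CDC25C. PLK1, the Polo-like kinase that acts on CDK1's activators and on the spindle, had 7.58 and 7.87 against 7.06. CCNA2 (cyclin A2) had 6.61 and 6.98 against 6.17, and CCNB1 (cyclin B1) 6.35 and 6.61 against 6.04. PLK1 and CCNA2 passed 1.5-fold with hairpin 2 only, as did FOXM1, a transcription factor of this programme, at 6.41 and 6.71 against 6.05. CCNB1 stayed just short of it. MELK, a kinase of dividing cells, differed by 0.11 and 0.35. The CDC25 phosphatases, which remove inhibitory phosphates from CDK1, stayed close to control. CDC25B had 8.81 and 8.94 against 8.87, and CDC25C 3.66 and 3.84 against 3.85.

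The Aurora A group was higher at its kinase and its activator. AURKA had log2 levels of 6.93 and 7.18 with hairpins 1 and 2 against 6.41 on the A549 control, or 1.43-fold and 1.71-fold. TPX2, which binds and activates Aurora A on spindle microtubules, had 6.67 and 6.91 against 6.13, or 1.46-fold and 1.72-fold. HMMR had 3.99 and 4.34 against 3.36 (0.81 ± 0.24, SD, n = 2 hairpins), all below the array medians. TACC3, a substrate that Aurora A recruits to the spindle, had 5.57 and 5.59 against 5.50. Of these 4 genes AURKA, TPX2 and HMMR lay above control on both hairpin arrays by over 0.5, and TACC3 by under 0.1.

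The chromosomal passenger complex was not uniform. AURKB had 7.20 and 7.47 with hairpins 1 and 2 against 6.93 on the A549 control. BIRC5 (survivin) had 6.27 and 6.51 against 5.74, and CDCA8 (borealin) 4.79 and 4.79 against 4.28. INCENP, the scaffold on which the complex assembles, had 5.91 and 5.92 against 5.92. Some deposited values are exactly equal on several arrays. INCENP was equal on the hairpin 2, A549 control and overexpression arrays, and CDCA8 on the hairpin 2 and CRL-5907 control arrays, so the difference of 0.00 for INCENP does not show that it was unchanged.

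Checkpoint and anaphase genes ranged from above control to the member furthest below it. CDC20, the co-activator of the anaphase-promoting complex (APC/C), had 5.63 and 5.86 with hairpins 1 and 2 against 5.17 on the A549 control, and BUB1, a checkpoint kinase, 5.43 and 5.69 against 5.13. TTK, which encodes the checkpoint kinase MPS1, had 3.07 and 3.22 against 2.69. PTTG1 (securin), the inhibitor of separase, had 7.47 and 8.15 against 7.42, so that only hairpin 2 set it apart. UBE2C, the ubiquitin-conjugating enzyme of the APC/C, had 5.89 on both hairpin arrays against 5.53, and ESPL1 (separase) differed by 0.09 and 0.19. BUB3, a partner of BUB1, differed by 0.24 and 0.04. MAD2L1, which encodes the checkpoint protein MAD2, had 4.42 and 4.79 against 4.84 and was that member (mean log2 difference -0.23 ± 0.26, SD, n = 2 hairpins).

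All 7 kinetochore genes were higher with both hairpins, by smaller amounts (medians 0.19 and 0.36). CENPA, the centromeric histone H3 variant, had 7.54 and 7.75 against 7.16 on the A549 control, and CENPF 5.18 and 5.42 against 4.80. Within the NDC80 complex, which binds microtubule ends, NDC80 differed by 0.34 and 0.34, NUF2 by 0.08 and 0.50, SPC24 by 0.19 and 0.26 and SPC25 by 0.11 and 0.28. CENPE, a kinetochore kinesin, differed by 0.10 and 0.36. The 6 measured kinesins had medians of 0.32 and 0.44. KIF11, the motor that separates spindle poles, differed by 0.48 and 0.58, KIF14, a cytokinesis motor, by 0.37 and 0.59, KIF15, another spindle motor, by 0.34 and 0.40, and KIF18A, which dampens chromosome movement, by 0.25 and 0.48. KIF20B differed by 0.29 and 0.38, and KIF2C, a microtubule depolymerase, by 0.06 and 0.36. No kinesin lay above the array median on any array.

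Of the spindle and centrosome genes, DLGAP5, a spindle-stabilising protein, had 5.01 and 5.29 against 4.43 on the A549 control and lay just short of 1.5-fold with hairpin 1 (0.58 and 0.86). NUSAP1, which bundles microtubules near chromosomes, differed by 0.47 and 0.61, and ASPM, a spindle pole protein, by 0.33 and 0.53. CKAP2 differed by 0.03 and 0.25, NEK2, a centrosome kinase, by 0.21 and 0.29, and PLK4, the kinase that starts centriole duplication, by 0.22 and 0.25. The cytokinesis genes had medians of 0.41 and 0.76. CEP55, an abscission protein, had 5.21 and 5.66 against 4.72, and ANLN (anillin), a contractile ring scaffold, 5.83 and 6.26 against 5.41. PRC1, which cross-links the central spindle, differed by 0.40 and 0.67, and ECT2, which activates RhoA at the cleavage plane, by 0.31 and 0.39. Among chromosome genes, TOP2A (topoisomerase II alpha) had 7.11 and 7.62 against 6.72, MKI67, which encodes Ki-67, 6.59 and 6.92 against 6.07, and NCAPH, a condensin subunit, 6.03 and 6.17 against 5.72.

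Hairpin 2 gave the higher level for 49 of the 52 genes, against 37.3% of all named genes, with a median of hairpin 2 minus hairpin 1 of 0.23 over the members and -0.01 over all named genes. This difference does not involve the control array. PTTG1 had the widest gap, 8.15 with hairpin 2 and 7.47 with hairpin 1. It was followed by TOP2A (0.51), CEP55 (0.45), ANLN (0.43), NUF2 (0.42) and CDK1 (0.41). The exceptions were BUB3, with 8.31 and 8.50, and UBE2C and NDC80, whose values were equal with both hairpins. NEDD9 itself was 8.52 with hairpin 2 and 8.35 with hairpin 1. The 2 constructs have 1 array each, so a difference between hairpins and one between arrays cannot be told apart.

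With NEDD9 overexpression in CRL-5907 the same list was again mostly higher than on its control array, with a median log2 difference of 0.40 (1.32-fold) against 0.00 over all named genes. By any amount 48 of 52 genes were higher, against 48.1% of all named genes, and 4 were lower, against 42.3%. At least 1.5-fold higher were 17 of 52 genes, against 2.9% of all named genes, and none was 1.5-fold lower, against 1.35%. With 1 array in each condition no test was run. Most of the 17 started from low values: 7 of the 52 genes lay above the array median on the CRL-5907 control and 10 with overexpression.

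Cytokinesis and chromosome genes were furthest from control, with all 4 and all 3 measured members past 1.5-fold. ECT2 had log2 levels of 7.07 with overexpression and 5.97 on the CRL-5907 control, or 2.13-fold, and ANLN had 5.17 and 4.08, also 2.13-fold. CEP55 had 3.87 against 2.98 and PRC1 5.37 against 4.55. TOP2A had 4.37 against 3.65, NCAPH 5.34 against 4.68 and MKI67 4.71 against 4.11. MKI67 (0.60) was the gene just inside 1.5-fold and ASPM (0.57) the one just outside.

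The single member furthest from control was NUSAP1, with 8.69 with overexpression against 7.29 on the CRL-5907 control, or 2.65-fold. Of the entry genes 6 of 10 passed 1.5-fold. PLK1 had 5.90 against 4.90, CDK1 3.85 against 2.94 and PBK 3.90 against 3.20. FOXM1 had 5.88 against 5.19, CCNB1 5.43 against 4.80 and CCNB2 3.80 against 3.17. The remaining 4, CCNA2 (0.41), MELK (0.46), CDC25C (0.28) and CDC25B (0.20), were higher by less.

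In the Aurora group only TPX2 passed, with 5.33 with overexpression against 4.50 on the CRL-5907 control. AURKA had 6.22 against 5.69, or 1.45-fold, just below the threshold. AURKB had 6.70 against 6.59, INCENP 5.92 against 5.75, TACC3 5.59 against 5.24 and HMMR 3.20 against 2.88. BIRC5 had 5.68 against 5.40 on its brightest feature, but the mean of its 2 features differed by -0.03, both with overexpression and between the lines. CDCA8 was the member furthest below control, with 4.43 against 4.79. Its control value is exactly equal to its hairpin 2 value, and both lay below the array medians, so this difference is uncertain. By brightest feature, CDCA8 was the only measured subunit of the passenger complex below the control array.

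Of the remaining genes CENPA (6.41 with overexpression against 5.76) and SPC25 (3.22 against 2.60) passed 1.5-fold. No checkpoint gene did, with CDC20 at 0.56, BUB1 at 0.50, MAD2L1 at 0.40 and UBE2C at -0.10. The kinesins had a median of 0.11, from 0.54 for KIF18A to -0.32 for KIF20B. NEK2 was at -0.09. CDCA8, KIF20B, UBE2C and NEK2 were the 4 genes below control.

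**Figure D2:**
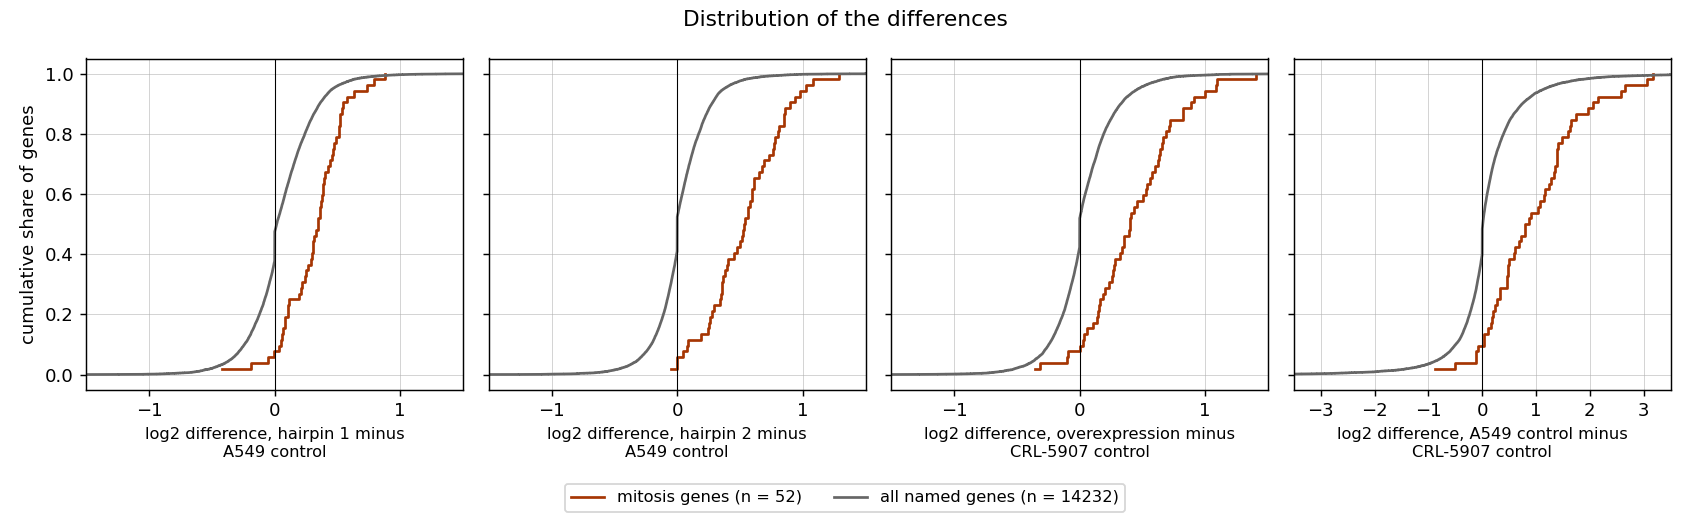
Cumulative share of genes (y axis) at or below each log2 difference (x axis) for hairpin 1, hairpin 2, overexpression and the comparison of the control arrays, with the 52 mitosis genes in brown and the 14232 named genes in grey. The brown curves lie to the right of the grey ones, with medians of 0.34, 0.54, 0.40 and 0.83 against 0.02, 0.00, 0.00 and 0.01.

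Knockdown in A549 and overexpression in CRL-5907 use different control arrays, so their values can be set against each other. By any amount, 44 of the 52 genes were higher with both hairpins and with overexpression, against 24.2% of all named genes. With 48 of the 52 higher in each manipulation taken alone, no smaller overlap was possible. The overlap thus adds nothing to those counts. CDK1, CCNB2 and PBK passed 1.5-fold in both manipulations, against 0.112% of all named genes. They are 75% of the 4 genes of the hairpin list and 17.6% of the 17 genes of the overexpression list. HMMR, the other gene of the hairpin list, had 1.25-fold with overexpression. MAD2L1 and CDC25C were lower with both hairpins and higher with overexpression, at -0.42 and -0.05 against 0.40 and at -0.19 and -0.00 against 0.28. CDCA8, KIF20B, UBE2C and NEK2 were higher with both hairpins and lower with overexpression. No member passed 1.5-fold in opposite directions.

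Across the 52 genes the mean hairpin difference and the overexpression difference had r = 0.43 (rank correlation 0.514), against r = 0.139 (rank correlation 0.191) across all 14232 named genes. These describe 5 arrays, and genes are not independent replicates. The mean level over the 5 arrays had r = 0.0432 with the hairpin difference and r = 0.408 with the overexpression difference over the same 52 genes. The 30 genes with TTTGAA in a promoter window had a median mean hairpin difference of 0.49 and a median overexpression difference of 0.49, against 0.24 and 0.34 for the 14 genes with windows that lack it. For CCAAT the medians were 0.43 and 0.44 in the 35 genes with it, against 0.23 and 0.14 in the 9 without. For the E2F letters they were 0.49 and 0.65 in 3 genes, against 0.39 and 0.40 in 41. The motif lists overlap: 25 genes held TTTGAA and CCAAT in the same window, and the 3 genes with the E2F letters all held TTTGAA. Whether a contrast is particular to any of these motifs cannot be told from these medians, and none of the contrasts was tested.

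**Figure D3:**
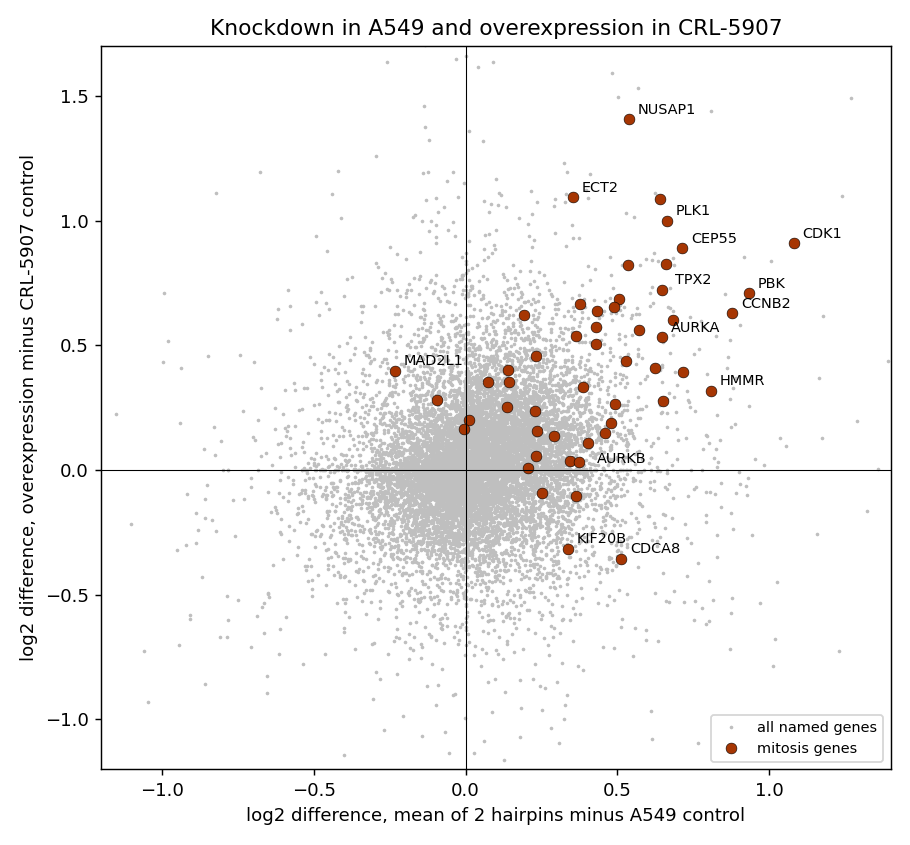
Mean log2 difference of the 2 hairpins from the A549 control (x axis) against the log2 difference of overexpression from the CRL-5907 control (y axis), with mitosis genes as brown points and all named genes as grey dots (axes do not reach the most distant grey dots). Of the 52 brown points 44 are genes higher with both hairpins and with overexpression, CDK1 lies furthest right and NUSAP1 highest.

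Between the control arrays of the lines, A549 had the higher level for 47 of the 52 genes, against 51.8% of all named genes. The median difference of the A549 control minus the CRL-5907 control was 0.83 (1.78-fold), against 0.01 over all named genes. At least 2-fold higher in A549 were 24 genes, against 6.44% of all named genes, and none was 2-fold lower, against 3.53%. CCNB2 stood furthest apart, with 6.34 in A549 and 3.17 in CRL-5907 (9.01-fold). TOP2A had 6.72 and 3.65 (8.39-fold), CDK1 5.61 and 2.94 (6.33-fold) and PTTG1 7.42 and 4.84 (5.98-fold) in A549 and CRL-5907. PLK1 (2.16), PRC1 (2.05) and MKI67 (1.97) followed on the log2 scale. The CRL-5907 values of these 7 genes lay below the median of their array, so the folds may be too small.

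The Aurora genes had a median difference between the lines of 0.34, and the entry genes one of 1.32. AURKA had 6.41 in A549 and 5.69 in CRL-5907, AURKB 6.93 and 6.59, and TPX2 6.13 and 4.50. NUSAP1 was the member furthest the other way, with 6.42 in A549 and 7.29 in CRL-5907, followed by CDCA8, with 4.28 and 4.79. The CRL-5907 value of CDCA8 is exactly equal to its hairpin 2 value, so its difference between the lines is uncertain. NDC80 (-0.12), MAD2L1 (-0.11) and UBE2C (-0.08) were lower in A549 by less. The gene just inside 2-fold was NCAPH (1.04) and the one just outside BUB3 (0.91). This comparison shares its arrays with the knockdown and overexpression comparisons, and the lines differ in many respects besides NEDD9 and LKB1. With overexpression, 42 of the 52 genes lay below their level on the A549 control array. The share over all named genes was not computed for this count, so it is not read as particular to these genes.

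**Figure D4:**
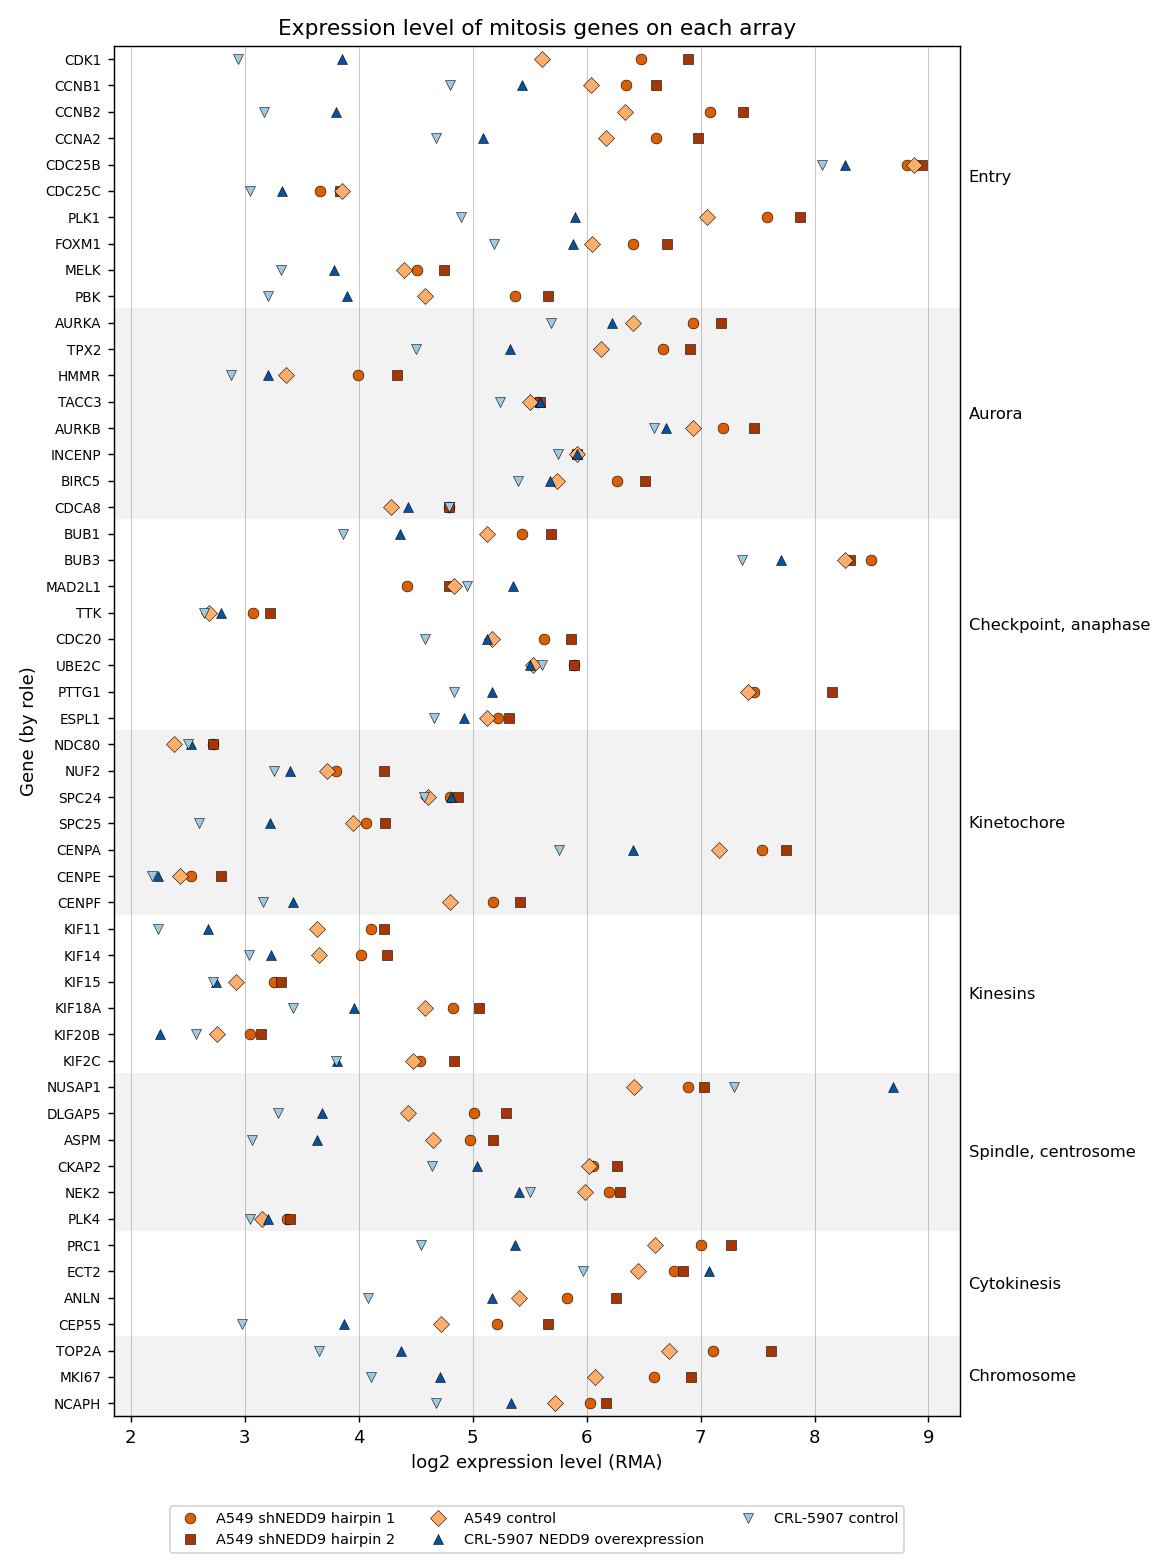
Log2 expression level (x axis) of each of the 52 measured genes (y axis, grouped by role) on the 5 arrays, with 1 symbol per array. For 47 genes the CRL-5907 control lies left of all 3 A549 arrays (share over all named genes not computed), and NUSAP1 is among the exceptions, with 7.29 on the CRL-5907 control.

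A second list of 65 other mitotic genes, of which 45 were measured, was also mostly higher. Its medians were 0.31 and 0.33 with hairpins 1 and 2 and 0.25 with overexpression. Of the 45 genes 38 were higher with both hairpins (84.4%, against 39.6% of all named genes). CENPK, a subunit of the inner kinetochore, passed 1.5-fold with both (4.91 and 5.25 against 4.25 on the A549 control) and was at 0.01 with overexpression. SGO1 (shugoshin), which guards centromeric cohesion, differed by 0.53 and 0.81 with the hairpins and by 0.65 with overexpression. CENPI was at 0.53 and 0.95 with the hairpins, and CKS2, a CDK-binding protein, had 8.76 with overexpression against 7.58 on the CRL-5907 control. DEPDC1 was 1.5-fold lower with overexpression (1.91 against 2.55), the only gene of the 45 to be so (2.22%, against 1.35% of all named genes). With the hairpins it was higher (3.33 and 3.15 against 2.65), and all these levels are low. Hairpin 2 exceeded hairpin 1 in 22 of these 45 genes (48.9%, against 37.3% of all named genes).

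Core subunits of the APC/C and of cohesin with its regulators, which work in mitosis but are not generally counted in the G2 and mitosis transcription programme, were also somewhat higher. Of the 18 measured of 22, 15 were higher with both hairpins (83.3%, against 39.6% of all named genes). The medians were 0.30 and 0.25 with the hairpins and 0.20 with overexpression. None was 1.5-fold higher with both hairpins or with overexpression, against 0.794% and 2.9% of all named genes. None was 1.5-fold lower, against 0.302% and 1.35%. At such shares a list of 18 genes may hold none. SMC1A, a cohesin subunit, had 7.64 and 7.64 with the hairpins against 7.29 on the A549 control, and ANAPC10 5.82 and 5.84 against 5.51. ANAPC2 was lower in both, at -0.36 and -0.36 with the hairpins and -0.37 with overexpression. Once the trend of the difference with level was removed, the medians of these subunits were 0.19, 0.18 and 0.14 with hairpin 1, hairpin 2 and overexpression, those of the second list 0.30, 0.34 and 0.28, and those of the 52 mitosis genes 0.30, 0.54 and 0.42. Between the lines the APC/C and cohesin genes had a median of -0.07.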

How the data were processed

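The authors deposited log2 expression levels for 22011 features on 5 arrays, for which the submitters' processing notes name Affymetrix Power Tools and RMA; versions, library files and genome build are not given in the sources used here. RMA corrects background, normalizes the arrays together and summarises probes. The log base was read from the values (0.58 to 13.09). Samples were grouped by title; the hairpin 2 description names NEDD10, and the title was followed. Correlations were 0.989 to 0.991 within A549 and 0.989 within CRL-5907, and no array was a copy of another. In any pair of arrays 6.25% to 8.97% of features had identical values.

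Of the features 14432 had 1 gene symbol in the platform annotation, 2408 several and 5171 none; 14404 matched RefSeq by Entrez number, with no symbol changed. Differences were log2 level minus control. Genes counted at 1.5-fold (both hairpins in the same direction; overexpression) or 2-fold (lines), without a level filter. Knockdown was tested with limma 3.58.1 under R 4.3.3 (eBayes with a variance trend; residual degrees of freedom 1, prior 0.577; Benjamini-Hochberg over 14232 genes), taking the single control to vary like the hairpins; these p-values measure the spread between arrays that may not be separate cultures. Single arrays had no test. The limma fit and the fold counts were tested on simulated data, where limma recovered changes only when the noise was equal across genes.

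The members, roles, the other lists, markers, motifs and the rule for named genes (any member; up to 4 genes of each other list, furthest by the smaller hairpin difference or by overexpression) were chosen with earlier results of these data known. Alternatives were arrays centred on medians, a further quantile normalization, a lowess trend with level removed (fraction 0.3), the mean of a gene's features, a level filter, each hairpin alone, and limma without a trend or on all 5 arrays. Promoter windows are from RefSeq (GRCh38.p14).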

Additional observations from a re-analysis of the deposited data

How the results depend on the processing

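Every count of members 1.5-fold or 2-fold lower was 0 under every alternative run. limma called 0 members under each of its 6 alternatives, which says nothing about stability, since 1 residual degree of freedom leaves little power to call any gene. Medians stayed between 0.34 and 0.54 for knockdown, 0.38 and 0.58 for overexpression and 0.72 and 0.88 for the lines. With hairpin 1 or hairpin 2 alone, 4 to 22 members were 1.5-fold higher and the median was 0.34 to 0.54. Keeping only genes with a mean level above the median left 18 members, of which 0 passed with both hairpins (0.436% of the 7116 genes kept), 9 with overexpression (3.3%; median 0.58) and 8 between the lines (9.26%). That mean is over all 5 arrays, so a gene can be kept through its A549 levels alone. TOP2A was kept with 3.65 on the CRL-5907 control. The count of 8 is therefore not a check of the line difference. After centring, HMMR no longer passed with both hairpins, MKI67 with overexpression, nor MELK and NCAPH between the lines; with the trend removed DLGAP5 and ASPM passed and NCAPH did not. No called gene changed sign. Of small differences, that of CDC25B (knockdown), KIF2C (overexpression), TTK and SPC24 (lines) turned under a rescaling, and those of BIRC5 (overexpression, lines) with the mean of its features. PLK4 between the lines went from 0.11 to -0.0 after centring. The median over all genes between the lines was -0.10 after centring, against 0.01 without it. No paired analysis was possible because every group but the hairpins has 1 array, and #1 and #2 number constructs that match no control array. Low levels of many of these genes and the single arrays limit all values.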
